A study of Mus musculus with 9 samples.

Results

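Cycling cells of the mouse epididymis were 802 of the 42087 cells kept in 9 single-cell RNA sequencing (scRNA-seq) libraries. They were chosen by their own transcripts. A barcode was kept with 300 to 4000 detected genes, no more than 20000 unique molecular identifiers (UMIs, which count captured transcripts) and less than 50% of mitochondrial transcripts (MTs). A kept cell was called cycling when it held at least 1 UMI of at least 4 of 6 genes, Mki67, Cenpf, Hmmr, Prc1, Ube2c and Top2a, and UMIs of fewer than 3 of the sperm genes Prm1, Prm2, Ldhc and Fabp9. The other 41285 kept cells are called non-cycling below, although a cell in G1 or early S phase, or a shallow cell, can miss this rule.

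A dividing cell copies its DNA in S phase, grows and checks the copies in G2 and separates the copies in mitosis (M), and cyclins with their kinases time each step. Genes of DNA replication are transcribed mainly around S phase, whereas genes of the kinetochore, the spindle and cytokinesis rise from G2 into mitosis and are shut off afterwards. Most epithelial cells of the grown epididymis, the duct in which sperm mature, are differentiated, and divisions among them are rare.

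Cells came from the caput, corpus and cauda epididymis of wild-type C57BL/6 mice (C57BL/6J in the study's methods) without treatment, at postnatal day 42 (P42, when the first wave of sperm passes) and day 56 (P56). Each library was 1 segment of a pool of 5 mice, with 1 pool at P42 and 2 at P56 (replicate 1 and replicate 2), so that the same mice gave all 3 segments of a pool and age cannot be told apart from the P42 pool. Cells of 1 library were not treated as replicates, and p-values measure the spread between these libraries. The tests of age and of class treat the 9 libraries as separate although only 3 pools of mice were sampled, so their p-values may be too small. Kept cells held between 19248247 and 40879086 UMIs per library.

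Cycling cells were deeper than the rest, with a median of 7808 UMIs and 2402 detected genes against 5511 UMIs and 1727 genes. Their median share of MTs was 7.11%, against 12.6% in non-cycling cells. These medians pool segments with unlike shares of MTs. Within libraries the gap ran from 5.09% against 6.04% (P56 replicate 2 caput) to 15.6% against 23.9% (P56 replicate 2 corpus). Of 41926 distinct barcode sequences, 116 occurred in more than 1 library, and none (0) was shared by cycling cells of different libraries. The sequences of 4 cycling cells also occurred elsewhere. The doublet caller Scrublet marked 3 cells in all and did not work as a filter. The 5% of highest scores per library took in 1.87% of cycling cells and 5.07% of the others. How many cycling cells were doublets was not tested. UMIs of 1 or 2 of the sperm genes were found in 28.7% of cycling cells, and 21.4% of non-cycling cells held at least 1 of these genes.

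The label was checked with genes that did not choose the cells. Cycling cells that expressed all 6 genes numbered 264, with 265 at 5 genes and 273 at 4, and 341 further cells at 3 genes lay just outside the rule. Transcripts of a list of 49 other G2/M genes made up 843 CPM (counts scaled to a library total of 1e+06) in cells with none of the 6 genes. They made up 3143 CPM at 3 genes, 4942 CPM at 4, 6853 CPM at 5 and 9676 CPM at 6, so that the cells on either side of the limit formed a gradient. The S-phase list of 43 genes lay at 457 CPM in cells with none, 1367 CPM at 3 genes and 1492 CPM at 6.

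Each of the rule genes was found in most cycling cells, which the rule itself ensures. Hmmr, a microtubule-binding protein of the spindle, was detected in 88.4% of them, Cenpf of the kinetochore in 87.2%, Prc1 of the central spindle in 86.2%, and the proliferation antigen Mki67 in 83.2%. Ube2c, which hands ubiquitin to the anaphase promoting complex, was detected in 80.2%, and Top2a, which untangles DNA strands, in 73.8%. Non-cycling cells held each gene in 2.61% to 3.67% of cells. In the 144 erythroid-like cells (median 3130 UMIs), mature forms of which do not divide, Mki67 was found in 1.39%, Cenpf and Prc1 in 2.78% each, Hmmr and Top2a in 2.08% each and Ube2c in 11.1%. The Ube2c share lay above the 2.89% of all non-cycling cells, and how much of these transcripts was free RNA was not tested.

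The share of all kept cells that were cycling was highest in the caput, but the segments were not separated by the test. Among caput cells, 151 of 4209 cells (3.59%) were cycling at P42, 92 of 4868 (1.89%) in P56 replicate 1 and 171 of 4910 (3.48%) in P56 replicate 2. In the corpus the shares were 3.27% (149 of 4562), 1.18% (56 of 4726) and 0.980% (44 of 4490) in the same order. Cauda cells had shares of 0.871% (40 of 4590), 0.741% (36 of 4858) and 1.29% (63 of 4874), below the corpus except in P56 replicate 2. All 3 caput libraries lay above all 3 cauda libraries, whereas the corpus overlapped both. The exact 95% intervals of single libraries, which cover counting error only, spanned 3.05% to 4.19% for the P42 caput and 0.623% to 1.18% for the P42 cauda.

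The mean share was 2.99% ± 0.951 (SD, n = 3) in the caput, with 1.81% ± 1.26 for the corpus and 0.968% ± 0.288 for the cauda. The caput exceeded the cauda by 2.02 points (exact two-sided permutation test within pools, p = 0.0185, adjusted over 3 pairs p = 0.0556). With 216 permutations, the smallest p this design allows for a pair is 0.00926. After every cell was thinned to 2000 UMIs, with 3340 non-cycling and 8 cycling cells left out as too shallow, the means fell to 1.17%, 0.742% and 0.401% and the adjusted p stayed at 0.0556. With only cells under 20% MTs, the P42 corpus (4.10%) lay above the P42 caput (3.67%). The caput minus corpus difference of means was 0.519 points there and 1.18 points in all kept cells. At P42 the corpus held 3.02 times the mean share of its P56 libraries, the caput 1.34 times and the cauda 0.857 times, which is a description because P42 had 1 pool. The caput ratio depends on the upper limits on genes and UMIs. Without them the caput shares were 5.69% at P42 and 1.98% and 3.58% in P56 replicates 1 and 2.

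**Figure D1:**
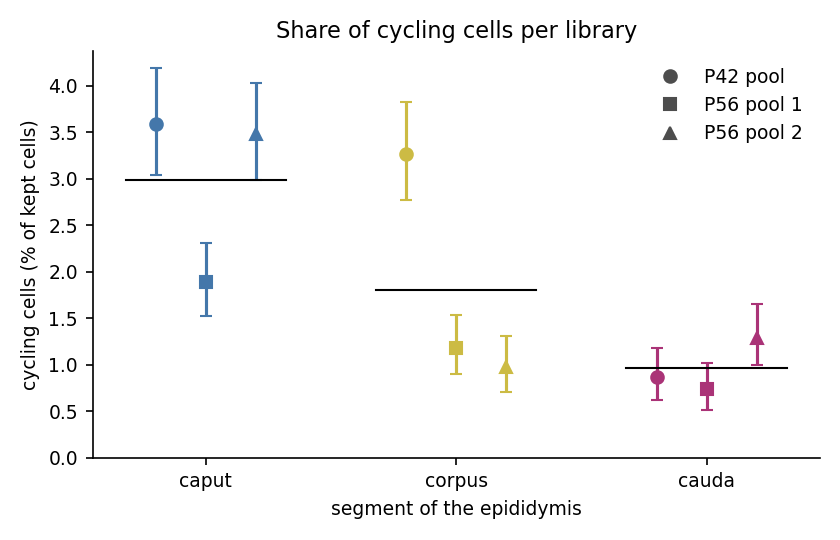
Share of kept cells that were cycling (y axis, %) in each library, by segment (x axis), with symbols for the pools, exact 95% binomial intervals as bars and the mean of the 3 libraries as a black line. The caput libraries lie at 1.89% to 3.59% and the cauda libraries at 0.741% to 1.29%, and the P42 corpus (3.27%) stands above both P56 corpus libraries.

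Cycling cells were spread over the epithelium, the stroma and the immune cells. Non-cycling cells formed 37 clusters, of which 30 were named from marker genes into 11 classes, and each cycling cell took the class most frequent among its 20 nearest non-cycling neighbours, found without cell cycle genes. For 98.9% of cycling cells, 50% or more of the neighbours were of the chosen class. Principal-like cells, the secretory cells of the duct, gave 391 of the 802 cycling cells. Macrophage/monocyte-like cells gave 54, basal-like cells 53, clear/narrow-like cells (which acidify the lumen) 50, fibroblast-like cells 35, and T/NK lymphocyte-like and endothelial-like cells 23 each. Sperm-like cells gave 17, myoid cell-like cells 10 and ciliated-like cells 2, and 144 lay in 7 unnamed clusters.

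Relative to the size of each class, T/NK lymphocyte-like cells had the highest share, 23 of 490 (4.69%, exact 95% interval 3.0% to 6.96%), and the share was 4.03% with all cells thinned to 2000 UMIs. Endothelial-like cells followed with 2.75%, principal-like cells with 2.39%, macrophage/monocyte-like cells with 2.24% and sperm-like cells with 2.14%. The last value may be lowered by the rule, which took 24 cells with 3 or more sperm genes out of the cycling cells but left them in the denominators. The place of the sperm-like class in this order depends on how many of those cells were sperm-like. Lower shares were found in myoid cell-like (1.49%), basal-like (1.33%), clear/narrow-like (1.02%), fibroblast-like (0.945%) and ciliated-like cells (0.922%, 2 of 217). None (0) of 144 erythroid-like cells was cycling, which allows a share of up to 2.08% by a limit of 3 counts (exact 95% upper bound 2.53%). These shares pool libraries of different make-up, and as means over libraries with at least 20 cells of the class, myoid cell-like cells had 2.15% and macrophage/monocyte-like cells 2.10%. Thinned, the shares were 0.867% in endothelial-like, 1.0% in principal-like, 0.359% in basal-like and 0.386% in clear/narrow-like cells.

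Each class was compared with principal-like cells of the same libraries by an exact two-sided sign-flip permutation test, with adjustment over 8 classes, and none passed. T/NK lymphocyte-like cells were 2.58 points higher on average, in 6 of 7 libraries with at least 20 such cells (exact sign-flip permutation p = 0.0781, the smallest possible being 0.0156, adjusted p = 0.328). By library their share was 5.15% (7 of 136) and 4.84% (6 of 124) in the P42 corpus and cauda. It was 3.85% (2 of 52) and 5.00% (1 of 20) in the P56 replicate 1 corpus and cauda. In the replicate 2 caput, corpus and cauda it was 4.44% (2 of 45), 7.69% (3 of 39) and 0% (0 of 44). The P42 cauda held only 28 principal-like cells, 0 of them cycling, and entered the tests of all classes but the ciliated-like. Clear/narrow-like cells were lower by 1.34 points (adjusted p = 0.328), basal-like cells by 1.04 points (adjusted p = 0.344) and fibroblast-like cells by 1.06 points (exact sign-flip permutation test, adjusted p = 0.344). These differences were of the opposite sign in 3, 3 and 4 of 9 libraries, and without the P42 pool they were 0.662, 0.400 and 0.329 points. Ciliated-like cells were lower by 3.53 points, in 3 of 3 libraries with at least 20 such cells, where no p under 0.25 is possible (exact sign-flip permutation test, adjusted p = 0.400). Libraries of a pool share mice, so these values are not fully independent.

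**Figure D2:**
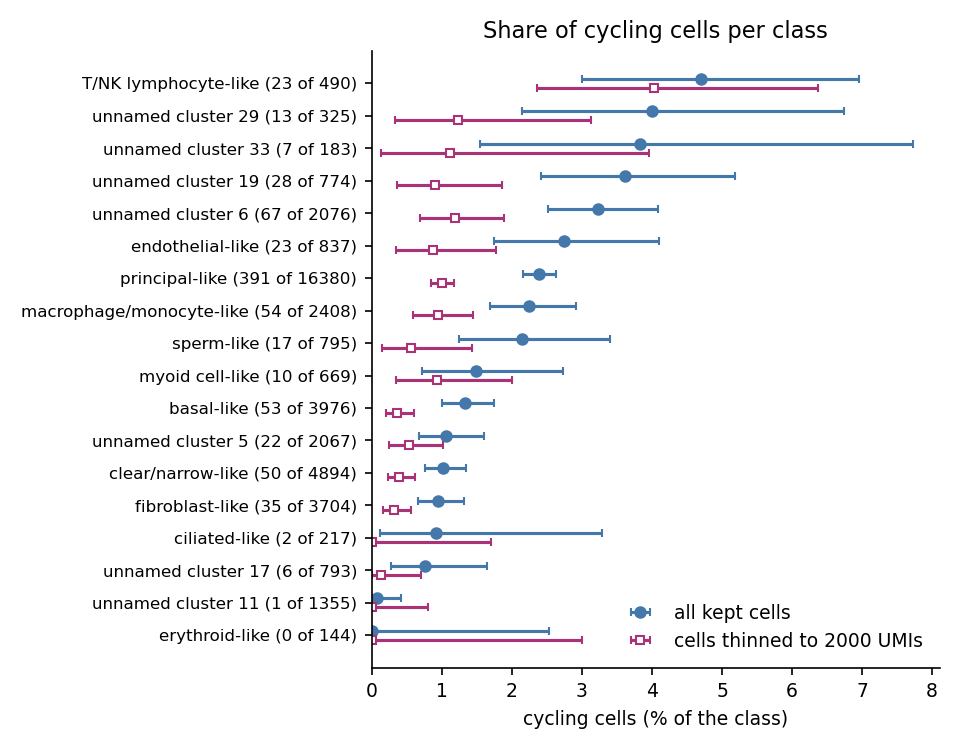
Share of cells that were cycling (x axis, %) in each class or unnamed cluster (y axis, with cycling cells and all cells in parentheses), for all kept cells and for cells thinned to 2000 UMIs, with exact 95% binomial intervals as bars. T/NK lymphocyte-like cells keep the highest share in both forms (4.69% and 4.03%), whereas most other shares fall further with thinning, for principal-like cells from 2.39% to 1.0% and for macrophage/monocyte-like cells from 2.24% to 0.946%.

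Within principal-like cells the share was 6.16% (110 of 1785), 2.09% and 3.89% in the caput at P42 and in P56 replicates 1 and 2. It was 4.78%, 0.927% and 1.32% in the corpus. In the cauda it was 0.743% and 1.26% at P56, and at P42 there were 0 cycling cells among only 28 principal-like cells, which allows a share of up to 10.7% by the same limit (exact 95% upper bound 12.3%). Because that library held so few principal-like cells, no test between segments was made. The P42 corpus and cauda were shallow (median 3359 and 3059 UMIs in non-cycling cells), and many of their cells fell in unnamed clusters.

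The make-up of the cycling cells varied along the duct, which was not tested. Principal-like cells were 110 of 151 cycling cells in the P42 caput, and 70 of 92 and 103 of 171 in the P56 caput libraries. They were 25 of 56 and 25 of 44 in the P56 corpus, and 13 of 36 and 22 of 63 in the P56 cauda, where basal-like cells gave 10 and 14 and clear/narrow-like cells 9 and 13. In the P42 cauda the 40 cycling cells were mostly macrophage/monocyte-like (21), with 7 fibroblast-like and 6 T/NK lymphocyte-like cells. The P42 corpus had 70 of 149 cycling cells in unnamed clusters.

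**Figure D3:**
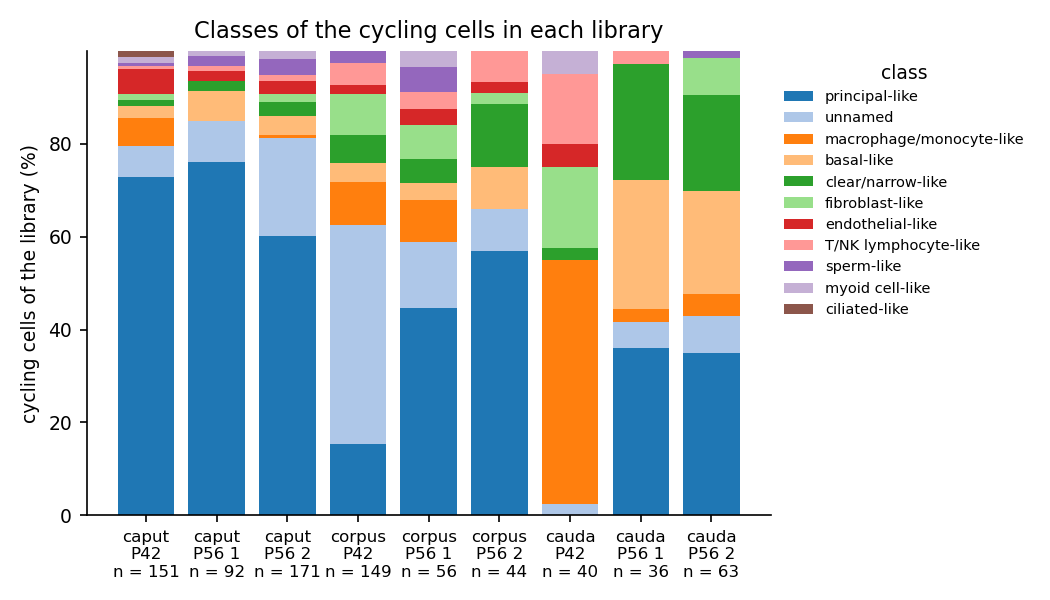
Classes of the cycling cells in each library, as a percentage of the library's cycling cells (y axis) with the number of cycling cells under each bar. Principal-like cells lead in the caput (60.2% to 76.1% of cycling cells), and the P42 cauda is led by macrophage/monocyte-like cells (21 of 40).

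The genes of each class were found in its cycling cells, which is a description because those genes placed them. Transcripts of principal cells were found in every class, with a summed level of 31 markers of 148222 CPM in principal-like, 120621 CPM in myoid cell-like, 41594 CPM in fibroblast-like and 24675 CPM in macrophage/monocyte-like cycling cells, so detection of such a gene does not by itself set a class apart. The part of free RNA in this was not tested. Adam7, a membrane protein of the epididymal epithelium, was found in all 391 principal-like cycling cells (4470 CPM), and in 37 of 54 macrophage/monocyte-like ones (816 CPM). Basal-like cycling cells held Krt14 in 41 and Krt5 in 33 of 53 cells. Clear/narrow-like cycling cells held Atp6v1g3, a proton pump subunit, in 49 of 50 and the transcription factor Foxi1 in 36. Macrophage/monocyte-like cycling cells held Cd74 of antigen presentation in 52 of 54 and Lyz2 in 49, and fibroblast-like cycling cells held Dcn in 35 of 35 and Col1a2 in 34. In T/NK lymphocyte-like cycling cells Ccl5 was found in 12 of 23 and Trbc2, a T cell receptor chain, in 8. The same cells held 9942 CPM of 10 fibroblast markers beside 2368 CPM of 15 T/NK lymphocyte markers, and the part of other cells' RNA in this was not tested.

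Of the unnamed groups, 67 cycling cells of cluster 6 all came from the P42 corpus, and all 67 held Wfdc13, Defb22 and Crisp1, products of principal cells of the duct. These transcripts were also found in macrophage/monocyte-like cycling cells, Wfdc13 in 26, Defb22 in 15 and Crisp1 in 48 of 54, so they do not give the type of the cells. Their median depth was 9699 UMIs, against 2624 in all cells of that cluster. All 28 cycling cells of cluster 19, which came from the caput, held Atp6v1g3 of clear cells together with Cst12 and Defb48 of principal cells, and whether they hold transcripts of more than 1 cell was not tested. Leading genes of cluster 29 (13 cycling cells) included Ms4a7 of macrophages with Defb48. Those of cluster 33 (7 cycling cells) included Mgp of stroma with Defb48, and this was not tested there either. Of the 22 cycling cells of cluster 5, 15 held the globin Hbb-bs, 5 the haem synthesis gene Cpox and 2 the B cell genes Vpreb3 and Ebf1. Erythroid markers summed to 30453 CPM in them, against 90111 CPM in matched cells, and to 4061 CPM in principal-like cycling cells. B cell markers summed to 299 against 16.7 CPM. The immunoglobulin genes Iglc1, Igkc, Jchain and Ighm led the cluster, and these counts do not give the type of its cells. Genes of the unnamed clusters were looked up after their values were seen.

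Genes of meiosis were found among the 17 sperm-like cycling cells. Sycp1 of the synaptonemal complex, which joins paired chromosomes in meiosis, was found in 10 of them (602 CPM, against 145 CPM in matched non-cycling sperm-like cells) and Sycp3 in 6 (201 against 55.5 CPM). Ldhc, the lactate dehydrogenase of germ cells and itself a gene of the rule, lay at 5716 CPM against 1621 CPM, and Meig1 at 3769 against 1128 CPM. Tnp2, a transition protein of late spermatids, was found in 0 of the 17 cells, against 843 CPM in matched cells, and Akap4 of the sperm tail lay at 16.7 against 271 CPM. The rule left out cells with 3 or more of Prm1, Prm2, Ldhc and Fabp9 from the cycling cells (24 cells) but not from the matched cells, so low levels of late sperm genes are set in part by the rule, and Sycp1, Sycp3 and Meig1 were looked up after values were seen, so these levels are a description. By library, 9 of these cells came from the caput, 7 from the corpus and 1 from the cauda. The sperm-like class joined clusters 22 and 32, and matched cells were drawn from the class and not from the nearer cluster. Cluster 32, led by Ldhc and Meig1, had 185 non-cycling and 11 cycling cells. Cluster 22, led by Prm1 and Prm2, had 593 and 6. How much of the differences above lies between these clusters was not tested.

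To describe the state of the cells within a class at a similar UMI count, each cycling cell was set beside the 5 non-cycling cells of its library and class nearest in UMI count, 4010 cells in all with a median of 7704 UMIs. Other measures were not matched: cycling and matched cells had medians of 2402 and 2195 detected genes and of 7.11% and 8.43% MTs. Some matched cells may be in cycle as well, since 800 of them held at least 1 of the 6 genes. Means are of CPM over the 9 libraries, ratios are log2 of (CPM + 1), and no test was made because the rule made this contrast. Of 16904 genes, 794 (4.70%) were at 2-fold or more in cycling cells, 845 (5.00%) were higher in all 9 libraries, 159 were at 2-fold or more lower, and the median log2 ratio was 0.07.

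Genes of mitosis showed the largest ratios. Of the 20 genes outside the rule with the highest ratio among genes at 50 CPM or more, 19 were in the cell cycle lists and are given here. Ccnb1, the B-type cyclin that drives entry into mitosis, lay at 162 CPM in cycling and 1.88 CPM in matched cells (log2 5.82), and over the libraries at 114 to 211 CPM against 0 to 4.17 CPM. Its kinase Cdk1 lay at 171 against 2.44 CPM (log2 5.65) and Birc5, the survivin subunit of the chromosomal passenger complex, at 181 against 2.60 CPM (log2 5.66). For these 3 genes the lowest library of cycling cells was above the highest library of matched cells. The other listed genes were Nusap1 (5.59), Tpx2 (5.49), Ccna2 (5.42), Pbk (5.40), Ckap2 (5.29), Ccnb2 (5.24), Kif23 (5.14), Knl1 (5.10), Ckap2l (5.08), Cdca3 (5.03), Cenpe (5.03), Anln (5.00), Ncapg (4.98), Aspm (4.96), Esco2 (4.95) and Cdkn3 (4.94).

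By role, all 15 genes of the kinetochore and its checkpoint, all 10 of the mitotic kinases and survivin complex, all 19 of the spindle and mitotic kinesins and all 7 of cytokinesis outside the rule were at 2-fold or more, with median log2 ratios of 4.32, 4.36, 4.04 and 4.18. Cenpa, the centromeric histone, lay at 290 CPM (159 to 445) against 8.96 CPM, Plk1 at 43.7 against 0.604 CPM, and Aurkb at 40.8 against 0.649 CPM. Stmn1, which destabilises microtubules, lay at 447 CPM against 26.3 CPM. Condensin and cohesin genes had 7 of 10 at 2-fold or more (median 3.10), with Smc4 of condensin at 1023 CPM against 121 CPM.

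Genes of DNA replication showed smaller ratios. All 13 measured genes of DNA synthesis were at 2-fold or more (median log2 1.67) and 9 of 12 of origin licensing (median 1.42). The S-phase list as a whole had 31 of 42 genes at 2-fold or more (median 1.63), against 47 of 49 for the G2/M list (median 3.95). Pcna, the sliding clamp of DNA polymerase, lay at 180 CPM (86.7 to 380) against 75.8 CPM, Rrm2, which makes deoxyribonucleotides, at 59.9 against 5.97 CPM, and Tk1 at 63.3 against 3.34 CPM. Mcm6 of the replicative helicase lay at 21.6 against 6.30 CPM and Gmnn, which blocks relicensing, at 72.5 against 14.1 CPM. Chromatin genes were intermediate (12 of 13, median 2.10), with the linker histone H1f5 at 129 against 3.63 CPM and Hmgb2 at 884 against 97.6 CPM.

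The regulators of the cycle were not all high. Cyclins of S phase were, with Ccne1 at 13.3 against 2.50 CPM (log2 2.04), whereas the D cyclins, which carry growth signals in G1, were at or below the level of matched cells. Ccnd2 lay at 139 against 197 CPM (log2 -0.50, higher in 0 of 9 libraries) and Ccnd1 at 87.7 against 124 CPM (log2 -0.49, higher in 2 libraries). The D-cyclin partners Cdk4 (0.27) and Cdk6 (0.33) differed little, and Cdk2 had a log2 ratio of 1.18. Among inhibitors, Cdkn1a, the p53 target p21, lay at 240 against 199 CPM (0.26), whereas Cdkn2c (1.88) and Cdkn2d (2.21), which inhibit Cdk4 and Cdk6, were higher in all 9 libraries. Of the 8 genes of the anaphase promoting complex list, 6 were at 2-fold or more (median 1.81). The inhibitor of the complex Fbxo5 (3.79) and its activator Cdc20 (4.84) were both high. Of its subunits, Anapc13 (-0.06) was level, as was the securin Pttg1 (0.06). The subunits Anapc11 (173 to 276 against 109 to 141 CPM) and Cdc27 (35.5 to 81.3 against 14.7 to 42.7 CPM) were higher in all 9 libraries.

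Transcription factors of the cycle had 6 of 11 genes at 2-fold or more, with Foxm1, which drives the G2/M genes, at 8.01 against 0.337 CPM (49.2 CPM in the P42 cauda, 3.58 to 7.02 CPM in 4 libraries and 0 in the other 4) and Myc at 18.7 against 22.0 CPM. Among other lists, where 4.70% of all genes reached 2-fold, none (0) of 11 nuclear genes of oxidative phosphorylation, 8 of ribosome biogenesis or 8 of apoptosis and p53 targets reached 2-fold, with medians of 0.08, 0.35 and 0.04, and 3 of the 8 genes of ribosome biogenesis were higher in all 9 libraries. The 10 dissociation stress genes had a median of -0.23 and a range of -0.59 to -0.10.

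**Figure D4:**
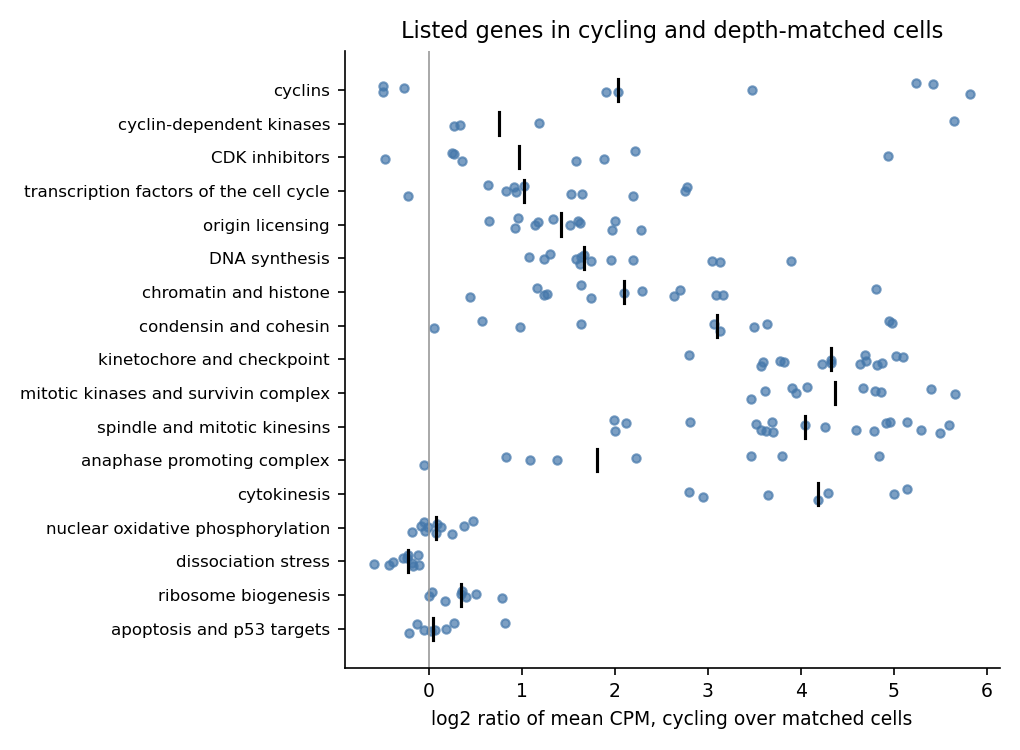
Log2 ratio of mean CPM + 1 in cycling over matched non-cycling cells (x axis) for each gene (points) of the lists (y axis), with list medians as black bars and the 6 rule genes left out. Mitotic lists lie at medians of 4.04 to 4.36, replication lists at 1.42 and 1.67, and the metabolic and stress lists near 0.

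Promoters of these genes are shown because the G2/M and the S genes are textbook targets of different factors. The cell cycle homology region (letters TTTGAA), bound by the DREAM complex and B-Myb/FoxM1 complexes, and the CCAAT box (letters CCAAT), bound by NF-Y, mark many G2/M promoters, and the E2F site (letters TTTGGCGC) marks S-phase promoters. The 250 bases before the start of 27025 genes in RefSeq promoter windows (GRCm38.p6) were searched on both strands, and TTTGAA and TTTGGCGC share their first 4 letters but cannot match at the same start. TTTGAA was found in 17 of 42 G2/M genes (40.5%) and 6 of 31 S genes (19.4%), against 18.3% of all genes. It was found in 1 of 13 kinetochore and checkpoint genes (7.69%). CCAAT was found in 31 of 42 G2/M genes (73.8%) and 22 of 31 S genes (71.0%), against 37.5% of all genes. TTTGGCGC was found in 1 of 42 G2/M genes (2.38%) and 5 of 31 S genes (16.1%), against 0.485% of all genes. All 6 rule genes held CCAAT and 4 held TTTGAA. The 150 bases before the start are printed 5′ to 3′ on the strand of the gene, with matches of either strand in capitals, for Ube2c (chr2:164769779-164769928, plus strand), Cdk1 (chr10:69352913-69353062, minus), Ccnb2 (chr9:70421555-70421704, minus), Mcm6 (chr1:128359706-128359855, minus) and Mcm5 (chr8:75109359-75109508, plus).
Ube2c: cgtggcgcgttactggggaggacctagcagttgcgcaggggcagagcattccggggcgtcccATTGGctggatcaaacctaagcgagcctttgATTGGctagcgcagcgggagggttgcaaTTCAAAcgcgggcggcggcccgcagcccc
Cdk1: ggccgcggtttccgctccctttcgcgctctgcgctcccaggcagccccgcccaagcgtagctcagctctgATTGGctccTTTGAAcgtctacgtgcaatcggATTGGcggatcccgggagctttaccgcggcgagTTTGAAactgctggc
Ccnb2: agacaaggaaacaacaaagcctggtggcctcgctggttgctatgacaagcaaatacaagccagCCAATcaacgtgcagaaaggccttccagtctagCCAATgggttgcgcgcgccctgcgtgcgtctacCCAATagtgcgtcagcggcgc
Mcm6: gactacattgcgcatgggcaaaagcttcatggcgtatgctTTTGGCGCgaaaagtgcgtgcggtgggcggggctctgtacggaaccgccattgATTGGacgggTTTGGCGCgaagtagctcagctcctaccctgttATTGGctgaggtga
Mcm5: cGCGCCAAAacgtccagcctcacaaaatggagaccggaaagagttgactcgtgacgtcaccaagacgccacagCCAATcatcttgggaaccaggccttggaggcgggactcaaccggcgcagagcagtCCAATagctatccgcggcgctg
Cdk1 held 2 matches of TTTGAA and 2 of CCAAT, Ccnb2 held 3 of CCAAT, and Mcm6 held 2 of TTTGGCGC and 2 of CCAAT. A match is a description of letters and not a bound site.

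Cycling cells of the caput carried relatively less S-phase transcript than those of the corpus. Of the UMIs of the S and G2/M lists together, the S list took 15.6%, 13.7% and 14.3% in the caput (P42, P56 replicates 1 and 2), 18.4%, 19.0% and 23.3% for corpus cells and 17.5%, 16.7% and 19.8% for cauda cells. All caput libraries were below all others, and the corpus and cauda overlapped. Means were 14.5% ± 0.932 (SD, n = 3), 20.2% ± 2.65 and 18.0% ± 1.62. The caput was 5.71 points below the corpus (exact two-sided permutation test within pools, p = 0.00926, the smallest possible, adjusted over 3 pairs p = 0.0278). The caput and cauda differed by 3.47 points (exact permutation test, adjusted p = 0.306).

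The class of the cells moved with this share: it was 33.1% in sperm-like and 29.5% in cluster 5 cycling cells, 20.4% in basal-like, 18.7% in clear/narrow-like and 15.1% in principal-like cycling cells. Within principal-like cycling cells it was 15.3%, 12.4% and 13.0% in the caput and 17.5%, 17.7% and 21.0% in the corpus, again without overlap, and 14.7% and 17.8% in the P56 cauda. With cells thinned to 2000 UMIs the caput and corpus differed by 4.74 points (exact permutation test, adjusted p = 0.0833), which no longer passed. Without sperm-like and cluster 5 cells, chosen after seeing the data, they differed by 6.02 points (exact permutation test, adjusted p = 0.0556). The call was lost there too, as under other settings given below. The rule asks for G2/M genes, so cells in S phase alone are under-represented in every segment.

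The MTs of cycling cells were compared between segments. Median shares were 4.59%, 5.17% and 5.09% in the caput, 8.93%, 14.8% and 15.6% for corpus cells and 5.70%, 16.2% and 13.0% for cauda cells (P42, P56 replicates 1 and 2). The caput lay below the other segments in every library, and the P42 cauda was close to it. The difference of caput minus corpus means was -8.18 points (4.95%, n = 3, against 13.1%; exact permutation test within pools, adjusted p = 0.0833), that of caput minus cauda was -6.67 points (exact permutation test, adjusted p = 0.167), and no pair passed. Non-cycling cells had higher medians in each library, from 6.04% to 6.45% in the caput and from 14.2% to 23.9% in the corpus.

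Gene expression of cycling cells was compared between segments with UMIs summed per library. Of 7231 genes tested by edgeR's quasi-likelihood test with the pool as a block, 797 (11.0%) passed an adjusted p of 0.05 with a range of at least 2-fold, with the highest level in the caput for 376 (5.20%), the corpus for 216 (2.99%) and the cauda for 205 (2.84%). Without the P42 pool, 1369 genes passed, without P56 replicate 1 218 and without P56 replicate 2 172, so the count depends on each pool. The make-up by class also moved with segment. In principal-like cycling cells alone (8 libraries with at least 10 cells), 870 genes passed, and 503 of the 567 genes that passed above and could be tested there passed again. These cells are part of the sums tested above, so the 2 results are not independent.

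The 5 genes named for the caput were Defb48, Defb25, Teddm1a, Actg2 and Lcn10. The beta-defensin Defb48 lay at 6757, 10039 and 10196 CPM in the caput (P42, P56 replicates 1 and 2), at 29.6, 25.7 and 26.1 CPM for corpus cells and at 35.1, 30.7 and 35.5 CPM for cauda cells. The caput stood apart in all pools, with a log2 fold change of corpus against caput of -8.26 ± 0.40 (SE, edgeR adjusted p = 4.53e-06 for the 3 segments). Defb25 (caput mean 7237 CPM), Teddm1a (3428 CPM), Actg2, a smooth muscle actin (1454 CPM), and the lipocalin Lcn10 (893 CPM) followed, with ranges of 8.05 to 10.3 on the log2 scale between segments (edgeR adjusted p of at most 8.03e-06). Of 31 principal cell markers, 30 were tested and 22 passed, 18 of them highest in the caput, beside 11.0% and 5.20% of all genes.

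In the corpus, Pate1, a small secreted protein of the male tract, lay at 1055, 1833 and 1609 CPM, against 38.6 to 224 CPM in the cauda and 1.38 to 6.77 CPM in the caput (edgeR adjusted p = 2.18e-05). Bsph2, a binder of sperm, lay at 1071, 1501 and 1603 CPM in the corpus and at 4.30 to 5.42 CPM in the caput. The defensins Defb23 and Defb26 and the gene model Gm34646 completed the 5 genes, with corpus means of 1888, 149 and 136 CPM.

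In the cauda, Lgals3, a galectin, lay at 488, 421 and 516 CPM, against 215 to 286 CPM in the corpus and 16.3 to 31.0 CPM in the caput (edgeR adjusted p = 0.000122). Id2, which restrains differentiation factors, lay at 1050, 639 and 953 CPM against 146 to 226 CPM in the caput and 149 to 334 CPM in the corpus (log2 cauda against caput 2.39 ± 0.25, edgeR adjusted p = 0.000517). Tnfaip3, which restrains NF-kB, lay at 225, 18.4 and 33.8 CPM in the cauda, and the P42 value, from the library rich in macrophage/monocyte-like cells, stood above the others. Pnmt, which makes adrenaline, and Cyp4a12a, a cytochrome P450, had cauda means of 102 and 47.8 CPM.

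The cell cycle genes were then compared between segments. Of 156 tested genes of these lists outside the rule, 5 passed, where 11.0% of all genes did: Ccnd2, Cdkn1a, Myc, Cenpm and Rrm2. At an unadjusted p under 0.05 there were 37 of the 156, where all genes had 26.2%, and whether the lists differ from all genes was not tested. None (0) of 46 G2/M genes passed by edgeR or DESeq2, with 10 at an unadjusted p under 0.05. In principal-like cycling cells alone, the genes that passed included Cenpa, the centromeric histone. Its log2 fold changes against the caput were -1.12 in the corpus and -1.04 in the cauda (edgeR adjusted p = 0.00238). In all cycling cells Cenpa lay at 402 to 445 CPM in the caput and at 159 to 328 CPM in the other segments. Ccnd2, a D cyclin, lay at 40.6, 29.8 and 32.3 CPM in the caput, 307, 154 and 163 CPM for corpus cells and 263, 172 and 89.7 CPM for cauda cells. The caput was below all other libraries, with a log2 fold change of 2.59 ± 0.29 for corpus against caput (edgeR adjusted p = 0.00131). Ccnd1, its paralog, lay between 46.5 and 130 CPM in all libraries, with overlapping segments (edgeR adjusted p = 0.773).

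Cdkn1a lay at 120, 114 and 93.9 CPM in the caput, 195, 219 and 319 CPM for corpus cells and 327, 322 and 448 CPM for cauda cells, with no overlap between segments (log2 cauda against caput 1.81 ± 0.28, edgeR adjusted p = 0.00943). Rrm2 lay at 22.2 to 35.2 CPM in the caput and 56.6 to 102 CPM in the corpus (edgeR adjusted p = 0.0436), and Cenpm, a centromere subunit, lay at 117 to 126 CPM in the caput and 33.8 to 59.7 CPM in the cauda (edgeR adjusted p = 0.0377), although no gene of its list passed by DESeq2. Myc lay at 1.35 to 6.89 CPM in the caput and 24.6 to 66.7 CPM in the cauda (edgeR adjusted p = 0.00638). Cdk1 had 91.0 to 125 CPM in the caput and 174 to 293 CPM in the corpus, and it missed the threshold (edgeR adjusted p = 0.0694). Ccnb1 lay between 114 and 211 CPM in all 9 libraries. In matched non-cycling cells the segment means of Ccnd2 were 43.1, 292 and 255 CPM and those of Cdkn1a 63.1, 225 and 309.9 CPM (caput, corpus and cauda), in the same order as in cycling cells.

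Genes of the early response to stress differed between segments in cycling cells. Of 10 dissociation stress genes, 7 passed, each with its highest fitted level in the cauda (11.0% of all genes passed, and 2.84% did so with the cauda highest): Atf3, Fosb, Fos, Egr1, Hspa1a, Hspa1b and Junb. Atf3 lay at 1932, 2638 and 2719 CPM in the cauda and at 478, 94.8 and 64.5 CPM in the caput (log2 3.82 ± 0.84, edgeR adjusted p = 0.0382). The P42 caput was above both P56 caput libraries. Atf3 and Fosb were highest in the cauda in every pool, whereas in P56 replicate 2 the corpus exceeded the cauda for Fos (1527 against 1330 CPM), Egr1 (572 against 377 CPM), Junb, Hspa1a and Hspa1b. Matched non-cycling cells had like levels of Atf3, with 2081, 2551 and 2798 CPM in the cauda and 559, 102 and 135 CPM in the caput. These are the genes that tissue digestion induces, and the part of dissociation in this difference was not tested. Gadd45b, a stress-induced growth arrest gene, lay at 120 to 232 CPM in the cauda and 16.3 to 79.9 CPM in the caput (edgeR adjusted p = 0.00965). Of 6 tested genes of apoptosis and p53 targets, 1 passed. Cycs, the electron carrier cytochrome c, was highest in the corpus at 597, 621 and 793 CPM, against 253 to 324 CPM in the caput (edgeR adjusted p = 0.0223). Of 11 tested nuclear genes of oxidative phosphorylation, 1 passed, where 11.0% of all genes did. Matched non-cycling cells had the same order for Cycs, with 531, 590 and 631 CPM in the corpus and 192 to 262 CPM in the caput.

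**Figure D5:**
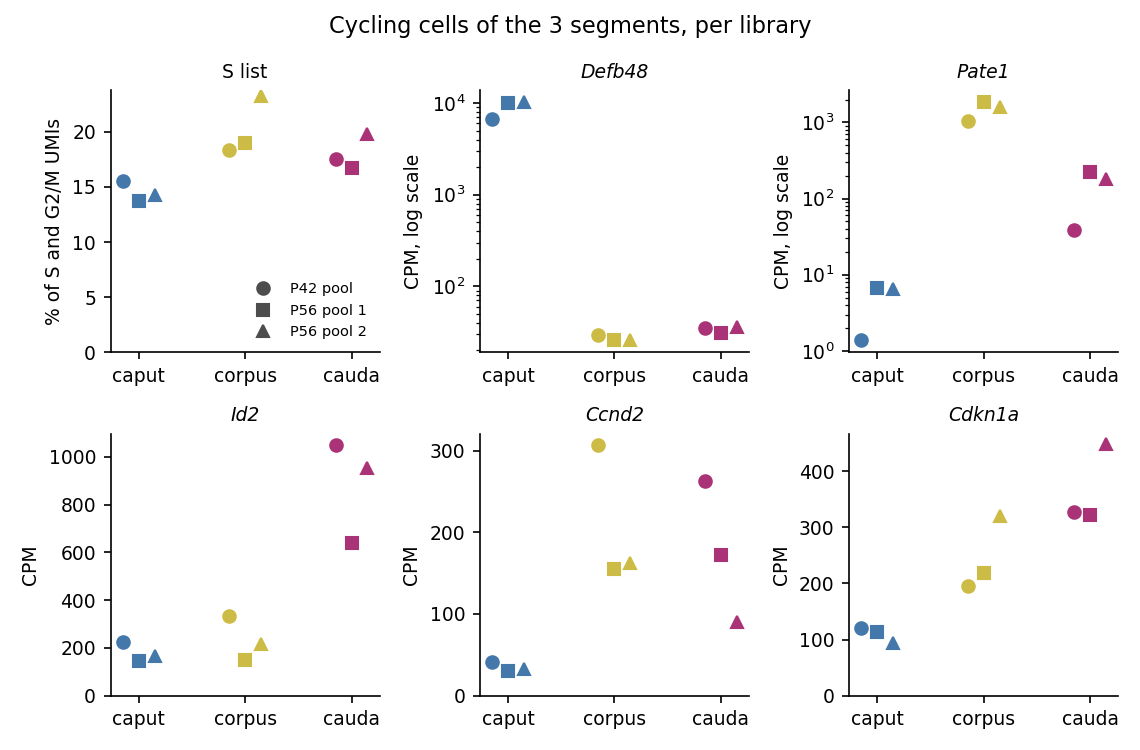
Values of cycling cells in each library by segment (x axis), with symbols for the pools: the S list as a percentage of S and G2/M UMIs, and CPM of Defb48, Pate1 (both on a log axis), Id2, Ccnd2 and Cdkn1a. Defb48 is at 6757 CPM or more in the caput and under 36 CPM elsewhere, Ccnd2 is at 40.6 CPM or less in the caput and at 89.7 CPM or more elsewhere, and Cdkn1a rises from the caput to the cauda in each pool.

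Between the ages, few genes differed, and the 3 P42 libraries are 1 pool. Of 7231 genes, 43 (0.595%) passed by edgeR with segment as a term, 4 (0.0553%) higher at P56 and 39 (0.539%) lower. More genes passed by DESeq2 and with TMM factors set to 1, as given below. When either P56 replicate was left out, 0 genes passed (625 without replicate 1 and 434 without replicate 2 at an unadjusted p under 0.05). None (0) of 156 cell cycle genes passed by edgeR, with 12 at an unadjusted p under 0.05 (15.3% of all genes) and 1 by DESeq2.

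Genes of stroma and macrophages were among those lower at P56. Sparc, a matrix glycoprotein, lay at 996, 2119 and 8316 CPM in the P42 caput, corpus and cauda and between 195 and 548 CPM in the P56 libraries (log2 -2.73 ± 0.37, edgeR adjusted p = 0.0222). Csf1r, the receptor of macrophage growth factor, lay at 26.2, 8.58 and 162 CPM at P42 and at 0.717 to 6.77 CPM at P56. The collagens Col5a2 and Col6a1 and the phosphatase Dusp1 had log2 fold changes of -3.54, -3.90 and -2.42. Of 10 fibroblast markers 5 passed, all lower at P56, and of 14 tested macrophage/monocyte markers 1 passed, beside 0.539% of all genes. P42 gave 22 of the 35 fibroblast-like and 44 of the 54 macrophage/monocyte-like cycling cells, and the part of this make-up in the difference was not tested. The 3 named genes higher at P56, Gm6988 (2.31), Gm6204 (1.85) and Gm13341 (1.59), are predicted models whose counts are uncertain where they share sequence with other genes.

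The difference between segments in cycling cells was then set against that in matched cells. Of 11595 genes, 41 (0.354%) passed an edgeR test of the difference of differences, with 835 (7.20%) at an unadjusted p under 0.05. Of 175 tested cell cycle genes outside the rule, 2 passed, Tubb5, a tubulin, and Cks1b, a partner of Cdk1. At an unadjusted p under 0.05 there were 46 of the 175, where all genes had 7.20%. Whether the lists differ from all genes was not tested, and the rule itself chose the cells by genes of the cycle. Tubb5 lay at 621, 593 and 710 CPM in cycling cells of the caput, corpus and cauda (segment means) and at 194, 92.7 and 154 CPM in matched cells, so that the segments were closer in cycling than in matched cells. With the pool in place of the library as a block 0 genes passed (219 at an unadjusted p under 0.05), by DESeq2 3 passed, and the counts without 1 pool were 134, 11 and 65 (P42, P56 replicate 1 and P56 replicate 2 left out).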

How the data were processed

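The authors deposited raw UMI counts per gene and cell as 1 table of 32195 genes and 44869 barcodes from 9 libraries (4971 to 4997 barcodes each, 307987941 UMIs in all, 0 columns of no sample). Cells were captured in microwells after enzymatic digestion, and the submitters' processing notes name STAR 2.7.3a, UMI-tools and GRCm38.p6. The methods state counting over exons. Columns of the table with the number 0 were taken as the P42 pool, because the number of cells the study lists for them matches P42 and the other columns match the P56 titles. No correction for free RNA was made here. Cycling cells and all gene lists were chosen with earlier results of these data known.

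Cells were scaled to 10000 counts, and each gene was centred within its library on the mean of the non-cycling cells. Non-cycling cells were clustered with igraph 0.11.9 and leidenalg 0.10.2 (3000 variable genes, 189 cell cycle genes left out, 50 principal components, 20 neighbours, resolution 1). Mitochondrial genes, globin genes and the sperm genes of the rule were left out of the variable genes as well. Scrublet was run through scanpy 1.11.5. Counts of cycling cells were summed per library (284737 to 1452098 UMIs) and tested with edgeR 4.0.16 in R 4.3.3, after filterByExpr, with TMM factors of 0.847 to 1.22 and the pool as a block. The pairing comes from the mice: the 3 segments of a pool are of the same animals. Deviations of same-pool libraries from segment means correlated at -0.03 to 0.39 (median 0.20, 9 pairs). A gene was called at a threshold of 0.05 on the p adjusted by Benjamini-Hochberg, together with a log2 difference of at least 1 between segments or ages. Shares were tested by exact permutation, and exact intervals are Clopper-Pearson. Alternatives were DESeq2 1.42.0, other normalization, filters, thinning, other rule limits and leaving out each pool.

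Genes named between segments were, for each segment, the 5 with the smallest adjusted p that were highest there in every pool. Between ages they were up to 5 in each direction whose ages did not overlap within any segment. Against matched cells they were the 20 with the largest ratio at 50 CPM or more and higher in every library, together with the listed genes, and 1 of them is not reported here. Tested on simulated data of 7231 genes, the segment test recovered 73% of 4-fold and 9% of 2-fold changes with 2.38% false calls, and the age test 71% and 16%. For the difference of differences these were 40% and 1%, with 4.65% false calls. The simulated libraries had no pool effect and no differences in class make-up, and calls there used the adjusted p alone. These rates may therefore not hold for the data, the age test included.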

Additional observations from a re-analysis of the deposited data

Results flagged for a closer look

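The difference between segments was not the same in cycling and in matched non-cycling cells for 41 of 11595 genes (edgeR quasi-likelihood test of the interaction). Those in the marker and cell cycle lists are given here with the widest log2 difference of differences between segments. The haemoglobin genes Hba-a1 (1.48), Hba-a2 (1.40) and Hbb-bt (1.34) were level in the caput and lower in cycling than in matched cells in the corpus and cauda, with Hba-a2 at 1051 against 1044 CPM in the caput and 1109 against 2359 CPM in the corpus. The carbonic anhydrase gene Car2 (1.38) lay at 451 against 106 CPM in the caput and 180 against 110 CPM in the cauda. Of the cell cycle genes, Tubb5 differed by 1.06 and Cks1b by 1.15, with Cks1b at 211 against 57.5 CPM in the caput and 150 against 18.4 CPM in the corpus. Smcp of sperm mitochondria differed by 1.76 and Ly6d by 2.29, both at under 200 CPM. Of principal cell genes, Defb20 differed by 0.93, Defb21 by 3.74 and Crisp1 by 0.71, and Defb21 was at 0 CPM in cycling and 0.317 CPM in matched cells of the cauda. The mast cell genes Cma1, Cpa3 and Mcpt4 led by p, and their cauda levels (440 CPM for Cma1) came from 2 cycling cells.

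Signal was also found in barcodes outside the comparisons. Of the kept cells, 24 held at least 4 of the 6 genes but also at least 3 of the sperm genes, 20 of them in the caput of P56 replicate 2. A further 201 barcodes past the upper limits on genes or UMIs met the other criteria, 132 of them in the P42 caput and 42 in the P42 corpus. How many of these were doublets was not tested. No group had enough libraries for a check of single libraries against their group.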

How the results depend on the processing

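Of 205 tests of named genes under alternatives, 187 kept their direction and their call. These genes were named for a small adjusted p in the same data, so this says little about stability. Of 23 counts of passing genes under alternatives, 17 were classed as moved. Most share tests passed under no setting, so that keeping their side of the threshold says nothing about stability. The S-phase difference of caput and corpus, the share result that passed, lost its call after thinning to 2000 UMIs (-4.74, adjusted p = 0.0833 by exact permutation), without ribonucleotide reductase and histone-related genes (-4.77), with at least 5 of the 6 genes (-6.15) and, chosen after seeing the data, without sperm-like and cluster 5 cells (-6.02), each with an exact adjusted p of 0.0556. Without 1 pool it ranged from -7.14 to -4.07, where 2 pools cannot pass. Against principal-like cells, the macrophage/monocyte-like difference turned to 0.506 with at least 3 genes and ranged from -0.460 to 0.00817 without 1 pool (0.00817 without P56 replicate 2). The endothelial-like difference turned to -0.202 after thinning, and the myoid cell-like one ranged from -1.30 to 0.817 (0.817 without P42). Differences of basal-like, clear/narrow-like and fibroblast-like cells ranged from -1.52 to -0.400, -1.74 to -0.662 and -1.64 to -0.329 without 1 pool.

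Between segments, 797 genes became 1708 with no filter on low counts (more genes tested), 521 with summed UMIs thinned to the shallowest library, and 172 to 1369 without 1 pool. Between ages, 43 became 144 by DESeq2, 110 with TMM factors set to 1, 677 with no filter, 25 in principal-like cells alone and 0 without either P56 replicate. The 41 interaction calls became 3 by DESeq2, 137 with no filter, 0 with the pool as the replicate block and 11 to 134 without 1 pool. Except for the filter, the cause was not tested. Without the pool block, the caput and cauda shares differed by 2.02 points (exact permutation test, adjusted p = 0.0821), the S-phase difference of caput and corpus kept its call (-5.71, exact adjusted p = 0.0143), and 794 genes passed between segments. Cauda libraries held 36 to 63 cycling cells, which limits the genes that could be tested.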

Other observations

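Some genes were lower in cycling cells than in matched non-cycling cells of the same library and class in all 9 libraries. Apoe, the apolipoprotein, lay at 1159 against 1668 CPM (log2 -0.53), Cebpd, a transcription factor of the acute phase, at 102 against 157 CPM (-0.62), and Zfas1, a noncoding RNA that hosts small nucleolar RNAs, at 81.3 against 133 CPM (-0.70). Spink13, a protease inhibitor of the epididymis, had a log2 ratio of -0.72. These are descriptions, since the rule made the contrast.

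Among endothelial-like cycling cells, Kdr was found in 19 of 23 cells and Prox1, a factor of lymphatic endothelium, in 5. Among basal-like cycling cells, 3 of 53 held the immunoglobulin gene Igkc, with 854 UMIs between them. Both were looked up after values were seen.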
